A study of Danio rerio with 6 samples.

Results

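The ATP-binding cassette (ABC) transporters were followed in whole zebrafish at 96 h post fertilization (hpf) after exposure to PCB-11, which is 3,3'-dichlorobiphenyl, a lightly chlorinated polychlorinated biphenyl. Members were taken by name alone, as every row of the count tables whose symbol begins with abca to abcg and a digit, which gave 29 of 14791 genes. Subfamily A had 4 of them, B 5, C 5, D 4, E 1, F 2 and G 8. Enough counts for a test were found for 27 of the 29, and each of these had at least 13 counts in every pool. The RefSeq table of assembly GRCz12tu carries 51 such symbols, and 28 of them had a row in the count tables. The bile salt export pump genes abcb11a and abcb11b, and abcb5 and abcc1, are among those not analysed here.

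The control group was 3 pools of strain AB zebrafish kept in the vehicle DMSO, and the exposed group was 3 pools kept in 4500 µg/L PCB-11 in the same vehicle. All animals had their chorions removed by hand at 24 hpf and stayed in glass vials of 5 with 0.05% v/v DMSO until 96 hpf, so the DMSO, the dechorionation and the handling were common to both groups. A pool was 18 to 20 whole animals, and poly(A) RNA was sequenced from each. The labels do not say whether the pools came from separate clutches, and the spread behind the p-values is therefore only that among these samples, which may in part be technical.

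ABC proteins share a nucleotide-binding domain that hydrolyses ATP. In subfamilies A, B, C, D and G this domain is joined to membrane-spanning segments, and the energy moves lipids, bile constituents, drugs, metal complexes or peptides across a membrane. Several members of B, C and G expel foreign compounds and their conjugates from the apical face of gut, liver and kidney cells, and in zebrafish embryos Abcb4 takes the protective efflux role that P-glycoprotein (ABCB1) has in mammals. Members of E and F lack membrane segments and act on ribosomes. The comparison therefore bears on whether an exposed embryo carries more or less transcript of its efflux and lipid pumps.

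Each pool had between 15705712 and 20479751 counts on genes. PCB-11 replicate 2 had the fewest, and also the highest share of reads outside genes, at 39.1% against 31.4% to 35.0% in the other pools. The whole-body sampling was reflected in marker genes of gut, liver, kidney tubule, ionocytes, islets, muscle, lens, photoreceptors and neurons, of which only the neuronal gene gap43 was listed at 0 in every pool. PCB-11 replicate 2 stood apart in marker levels. Relative to the mean of the DMSO pools, its median log2 level was -0.74 over 12 enterocyte markers and 0.53 over 13 neuron markers. Levels below are library-scaled counts in the CPM unit after TMM scaling, which are not divided by transcript length, so they are compared between pools and not between genes. In RNA from whole animals, fewer cells of a type and less RNA per cell cannot be told apart.

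No ABC gene passed the test between the groups, but most lay lower in the exposed pools. Of the 27 tested, 21 had a negative log2 fold change (PCB-11 minus DMSO), where 49.8% of all 12960 genes tested did. Their median was -0.20, against 0.00 over all genes. At a Benjamini-Hochberg adjusted p under 0.05, edgeR's quasi-likelihood test called 0 ABC genes, with 0.0463% of all genes called. DESeq2 also called 0 of them (0.858% of all genes) and limma-voom 0 (0.0% of all genes). The smallest adjusted p was 0.308 in edgeR, 0.061 in DESeq2 and 0.314 in limma-voom, each reached by abcb4 and the last also by abcc4.

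At an unadjusted p under 0.05 in edgeR, 6 ABC genes were lower and 0 higher, where 6.04% of all genes were lower and 5.8% higher. All 3 PCB-11 pools lay below all 3 DMSO pools in 12 ABC genes, or 44.4% of those tested, against 9.35% of all genes. The opposite order occurred in 0 ABC genes and in 10.0% of all genes. Without PCB-11 replicate 2, the pool with the lowest enterocyte markers, 14 ABC genes lay lower in this way (12.8% of all genes) and 1 lay higher (13.5%). At an unadjusted p under 0.05, 6 were then lower, with 4.69% of all genes. Without PCB-11 replicate 3, 14 ABC genes lay lower (20.4% of all genes) and 4 higher (20.6%), and 10 were lower at an unadjusted p under 0.05 (11.6% of all genes). In that fit edgeR called 1.41% of all genes, and 0 ABC genes. The 12 genes were also the 12 with the smallest p. ABC genes were chosen by symbol, with earlier results of these data known. They are not independent of one another, since several are made by the same gut, liver and kidney cells.

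**Figure D1:**
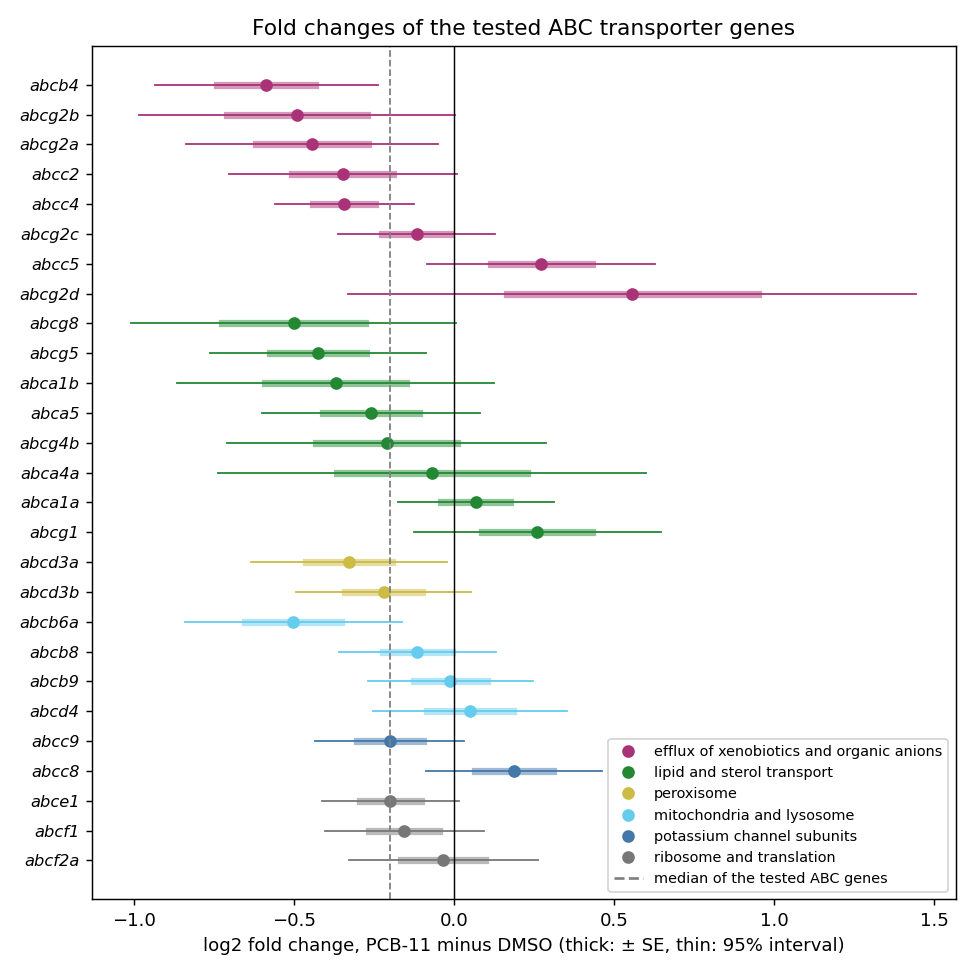
Log2 fold change (PCB-11 minus DMSO) of the 27 tested ABC genes, coloured by role, with thick bars for ± SE and thin bars for the 95% interval of edgeR's quasi-likelihood fit. Most points lie left of 0, the dashed line marks the median of -0.20, and no gene passed the adjusted threshold.

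Among the pumps of foreign compounds and organic anions, 6 of 8 had lower values and 2 had higher values. Their median log2 fold change was -0.35, and edgeR called 0 of them (0.0463% of all genes). The gene with the smallest p of the whole family was abcb4, the embryo's multixenobiotic efflux pump. It had 67.6, 73.0 and 73.3 CPM in DMSO replicates 1, 2 and 3 and 55.3, 35.3 and 51.5 CPM in PCB-11 replicates 1, 2 and 3. Every exposed pool lay below every control pool, and PCB-11 replicate 2 was the lowest. The means were 71.3 ± 3.18 and 47.4 ± 10.6 CPM (SD over 3 pools). The log2 fold change was -0.59 ± 0.15 (SE), a difference of -33.5% in level. The 95% interval of this difference ran from -0.94 to -0.24 (unadjusted p = 0.0040, edgeR adjusted p = 0.308). By unadjusted p it ranked 164 of 12960 genes. Without PCB-11 replicate 2 the log2 fold change was -0.42, the smallest obtained on leaving out a pool, and -0.71 was the largest.

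The gene abcc4, an exporter of cyclic nucleotides, prostanoids and conjugated compounds, had 89.0, 91.5 and 83.7 CPM in DMSO and 71.1, 63.2 and 73.7 CPM in PCB-11. The groups did not overlap, and the exposed pools lay closer together than for abcb4. The log2 fold change was -0.34 ± 0.10 (edgeR adjusted p = 0.315), and it stayed between -0.39 and -0.28 when single pools were left out. For abcc2, the apical exporter of glutathione and glucuronide conjugates into bile, urine and gut lumen, counts gave 267.8, 270.2 and 249.9 CPM in DMSO and 224.1, 155.1 and 239.6 CPM in PCB-11. PCB-11 replicate 3 lay just under the lowest control, while PCB-11 replicate 2 lay far below the others. The log2 fold change was -0.35 ± 0.16, with a 95% interval from -0.71 to 0.01 (edgeR adjusted p = 0.424), and without PCB-11 replicate 2 it was -0.18.

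Zebrafish have several copies of the breast cancer resistance protein gene ABCG2, and 4 of them were in the tables. The copy abcg2a had 137.5, 106.4 and 109.8 CPM in DMSO and 99.4, 64.0 and 96.2 CPM in PCB-11. Its log2 fold change was -0.45 ± 0.17 (edgeR adjusted p = 0.400). DMSO replicate 1 was the highest pool and PCB-11 replicate 2 the lowest, with no overlap. The copy abcg2b had 20.7, 15.8 and 14.8 CPM in DMSO and 14.0, 8.11 and 14.2 CPM in PCB-11 (log2 fold change -0.49 ± 0.22, edgeR adjusted p = 0.423). Its highest and lowest pools were those of abcg2a, again with no overlap. Without PCB-11 replicate 2 the log2 fold changes of the copies were -0.27 and -0.28. Of the other two, abcg2c had a log2 fold change of -0.12 ± 0.11 and abcg2d, with 13 to 37 counts per pool, of 0.56 ± 0.39. In both the groups overlapped. Related copies can exchange reads in counting, so the single members abcg2a to abcg2d are uncertain.

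The last gene of this role, abcc5, an exporter of cyclic nucleotides and heme, lay on the other side of 0. Its levels were 306.3, 277.2 and 247.6 CPM in DMSO and 348.1, 392.1 and 262.7 CPM in PCB-11. PCB-11 replicate 3 lay inside the control range and PCB-11 replicate 2 was the highest, so the order of the exposed pools was the reverse of that in abcc2. The log2 fold change was 0.27 ± 0.16, with a 95% interval from -0.08 to 0.63 (edgeR adjusted p = 0.502). It was 0.14 without PCB-11 replicate 2 and 0.42 without PCB-11 replicate 3. The medians of the neuron markers were ordered in the same way. Their log2 differences from the DMSO mean were 0.19, 0.53 and -0.08 in PCB-11 replicates 1, 2 and 3. Of the 13 markers tested, 10 were higher and 3 lower. The lower ones, elavl3, slc17a6b and vamp2, were highest in replicate 1 among the exposed pools. The part of these markers in the result was not tested.

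**Figure D2:**
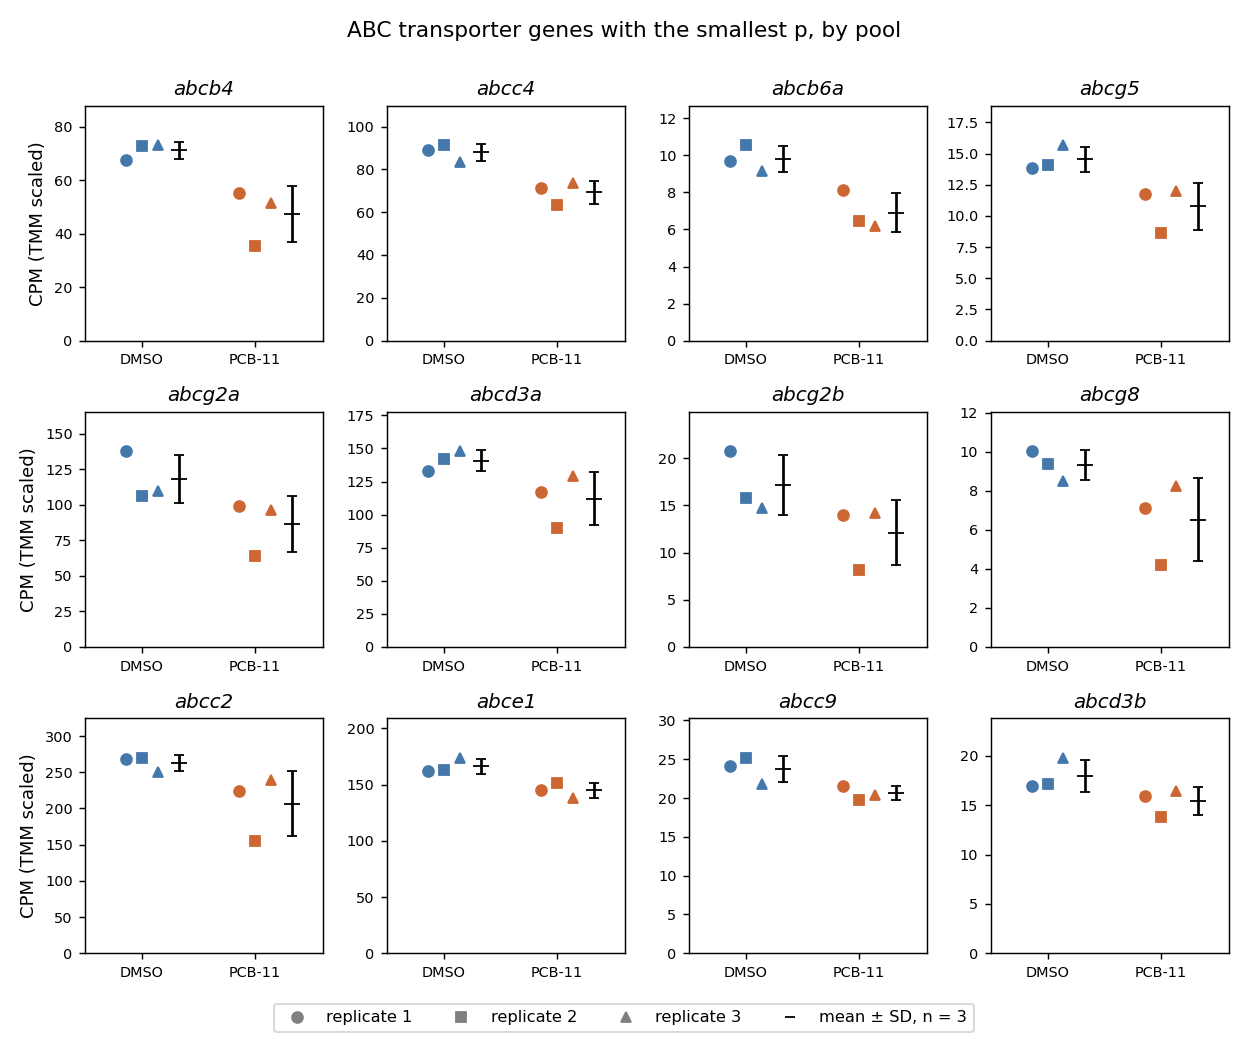
CPM after TMM scaling in each pool for the 12 ABC genes with the smallest p, with symbols for replicates and black bars for mean ± SD over 3 pools. In each panel all 3 PCB-11 pools lie below all 3 DMSO pools. That order was found in 12 of the 27 tested genes, against 9.35% of all genes. PCB-11 replicate 2 is the lowest pool in 10 of the 12, and in 13 of the 27. The 12 were picked by p from these same values.

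Among the carriers of lipids and sterols, 6 of 8 had lower values and 2 higher. Their median was -0.24, and edgeR called 0 of them (0.0463% of all genes). The genes abcg5 and abcg8 encode the partners of a heterodimer that returns plant and dietary sterols to the gut lumen and to bile. Levels of abcg5 were 13.8, 14.1 and 15.7 CPM in DMSO and 11.7, 8.60 and 12.01 CPM in PCB-11 (log2 fold change -0.43 ± 0.15, edgeR adjusted p = 0.374). Levels of abcg8 were 10.03, 9.38 and 8.51 CPM in DMSO and 7.13, 4.18 and 8.27 CPM in PCB-11 (log2 fold change -0.50 ± 0.22, edgeR adjusted p = 0.423). Both partners were lower in every exposed pool than in any control and lowest in PCB-11 replicate 2. Without that pool the log2 fold changes were -0.29 for abcg5 and -0.27 for abcg8, and without PCB-11 replicate 3 that of abcg8 was -0.70. The log2 ratio of their counts was 0.64 ± 0.22 in DMSO and 0.77 ± 0.26 in PCB-11 (SD, 3 pools each), a difference smaller than either spread.

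The paired copies of the cholesterol and phospholipid exporter gene ABCA1 went different ways in single pools. The copy abca1b had 114.8, 97.5 and 106.6 CPM in DMSO and 80.1, 54.2 and 112.0 CPM in PCB-11. PCB-11 replicates 1 and 2 were below the controls, but PCB-11 replicate 3 was among them, and the log2 fold change of -0.37 ± 0.22 had a 95% interval from -0.87 to 0.12 (edgeR adjusted p = 0.512). It was -0.15 without PCB-11 replicate 2 and -0.66 without PCB-11 replicate 3. The copy abca1a stayed between 73.0 and 91.7 CPM in all 6 pools, with a log2 fold change of 0.07 ± 0.11. The log2 ratio of abca1b to abca1a counts was 0.47, 0.29 and 0.55 in DMSO and -0.19, -0.59 and 0.61 in PCB-11. The exposed pools therefore spanned a range far wider than the controls and reached past them on both sides. Reads of these copies may be exchanged in counting.

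The further lipid carriers did not separate the groups. Log2 fold changes were -0.26 ± 0.15 for abca5, 0.26 ± 0.17 for the sterol exporter gene abcg1 and -0.21 ± 0.22 for its relative abcg4b, which had 39 to 63 counts per pool. The gene abca4a, whose protein flips retinoids in photoreceptor outer segments, had a log2 fold change of -0.07 ± 0.30. It had 5.39, 3.02 and 3.26 CPM in DMSO and 2.63, 4.97 and 3.53 CPM in PCB-11, so 1 pool of each group was high. The same pools, DMSO replicate 1 and PCB-11 replicate 2, had the highest summed level of the 21 photoreceptor markers, with 14341 and 14704 CPM against 9872 to 11987 CPM in the other pools.

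In the peroxisomal subfamily, abcd3a and abcd3b encode copies of PMP70, which carries long and branched fatty acids and bile acid precursors into peroxisomes. Levels of abcd3a were 132.6, 142.2 and 147.9 CPM in DMSO and 117.1, 90.2 and 129.0 CPM in PCB-11. The highest exposed pool, replicate 3, was just under the lowest control, and the log2 fold change was -0.33 ± 0.14 (edgeR adjusted p = 0.411). Levels of abcd3b were 17.0, 17.1 and 19.8 CPM in DMSO and 16.0, 13.8 and 16.4 CPM in PCB-11, a smaller difference in the same direction (log2 fold change -0.22 ± 0.12, edgeR adjusted p = 0.486). Without PCB-11 replicate 2 the log2 fold changes were -0.20 for abcd3a and -0.15 for abcd3b, and without DMSO replicate 3 that of abcd3b was also -0.15. Of the peroxisomal enzymes downstream, ehhadh, the bifunctional enzyme of fatty acid oxidation, had 40.1 ± 1.86 CPM in DMSO and 30.4 ± 3.51 CPM in PCB-11 (log2 fold change -0.40 ± 0.11, edgeR adjusted p = 0.308).

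Of the mitochondrial and lysosomal members, abcb6a, a porphyrin transporter gene, had 9.68, 10.6 and 9.17 CPM in DMSO and 8.11, 6.45 and 6.16 CPM in PCB-11. It was 1 of only 2 of the 12 genes in which PCB-11 replicate 3 rather than replicate 2 was the lowest pool, abce1 being the other. The log2 fold change was -0.50 ± 0.15, with a 95% interval from -0.84 to -0.17 (edgeR adjusted p = 0.321), and it was -0.64 to -0.42 on leaving out single pools. The red cell heme synthesis gene alas2 lay on the other side, with 34.2 ± 1.43 CPM in DMSO and 44.7 ± 5.53 CPM in PCB-11 (log2 fold change 0.39 ± 0.11, edgeR adjusted p = 0.321). The 8 erythrocyte markers tested, alas2 among them, were split, with 4 higher, 4 lower and a median of -0.01. Differences were small in the rest of this role: -0.12 ± 0.11 for the mitochondrial abcb8, -0.01 ± 0.11 for the lysosomal peptide carrier abcb9 and 0.05 ± 0.13 for the lysosomal cobalamin carrier abcd4, all on the log2 scale. The 95% intervals of these 3 genes lay within -0.36 to 0.35.

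The genes abcc8 and abcc9 encode the sulfonylurea receptors, subunits that gate potassium channels by the cell's ATP. Levels of abcc9, the form of heart and vessel muscle, were 24.1, 25.2 and 21.9 CPM in DMSO and 21.6, 19.8 and 20.4 CPM in PCB-11 (log2 fold change -0.20 ± 0.10, edgeR adjusted p = 0.461). The gap between the highest exposed pool and the lowest control was small. The pore subunit gene kcnj8, with which ABCC9 assembles in mammals, was among the partner genes with the smallest p. It had 2.54 ± 0.33 CPM in DMSO and 1.58 ± 0.26 CPM in PCB-11 (log2 fold change -0.68 ± 0.23, edgeR adjusted p = 0.366). The other pore subunit genes listed, kcnj11 and kcnj11l, were not among these and are not described. The islet and neuron form abcc8 had 34.8, 33.2 and 30.0 CPM in DMSO and 35.7, 42.9 and 32.9 CPM in PCB-11, with a log2 fold change of 0.19 ± 0.12 (edgeR adjusted p = 0.543). Its highest pool was PCB-11 replicate 2, where the neuron markers had their highest median. By median log2 difference, the islet list had 0.24, 0.12 and 0.03 in PCB-11 replicates 1, 2 and 3. The DMSO replicates had 0.12, -0.02 and -0.06. Its summed level was highest in PCB-11 replicate 2 (656 CPM), most of it from neurod1 (205 CPM), scg3 (168 CPM) and isl1 (131 CPM). Of the hormone genes, sst1.1 was also highest in that pool (35.9 CPM), while gcga (10.5 CPM) and gcgb (4.36 CPM) were lowest there. The sum therefore says little of the other islet markers. Of the 13 islet markers tested, 7 were higher and 6 lower, with 0 called by edgeR (0.0463% of all genes). In 3 of them all PCB-11 pools lay above all DMSO pools, against 10.0% of all genes. At an unadjusted p under 0.05 in edgeR, 4 were higher, against 5.8% of all genes. The part of these lists was not tested.

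Differences were small among the members without membrane segments. The ribosome recycling factor gene abce1 had 162.1, 163.0 and 174.1 CPM in DMSO and 145.0, 151.8 and 137.9 CPM in PCB-11, with no overlap. Its log2 fold change of -0.20 ± 0.09 corresponded to a difference of -12.9% in level (edgeR adjusted p = 0.442). The gene abcf1, which acts in translation initiation, had 171.3, 168.4 and 180.2 CPM in DMSO and 152.5, 174.4 and 139.9 CPM in PCB-11, with PCB-11 replicate 2 inside the control range (log2 fold change -0.16 ± 0.11, edgeR adjusted p = 0.566). For abcf2a the log2 fold change was -0.04 ± 0.13. The remaining gene, abcb3l1, is a synonym of the antigen peptide transporter gene tap2a in the RefSeq table. It had 0 counts in 4 pools, 1 count in DMSO replicate 2 and 3 counts in PCB-11 replicate 1, too few for any comparison.

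The order of the pools differed between members. PCB-11 replicate 2 was the lowest of the 6 pools for 13 of the 27 tested genes and the highest for 4, which were abcc5, abcc8, abcg1 and abcf2a. PCB-11 replicate 3 was the lowest for 5 and the highest for 1, abcd4. The median log2 difference of the 27 genes from the DMSO mean was -0.20, -0.25 and -0.13 in PCB-11 replicates 1, 2 and 3, and 0.02, 0.01 and 0.01 in the DMSO replicates. The 8 efflux genes gave -0.23, -0.62 and -0.25 in the exposed pools. The 3 ribosomal members gave -0.18, 0.01 and -0.27, with replicate 2 nearest the controls. Summed over the 29 genes, the level was 1858, 1797 and 1768 CPM in DMSO and 1684, 1578 and 1612 CPM in PCB-11.

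**Figure D3:**
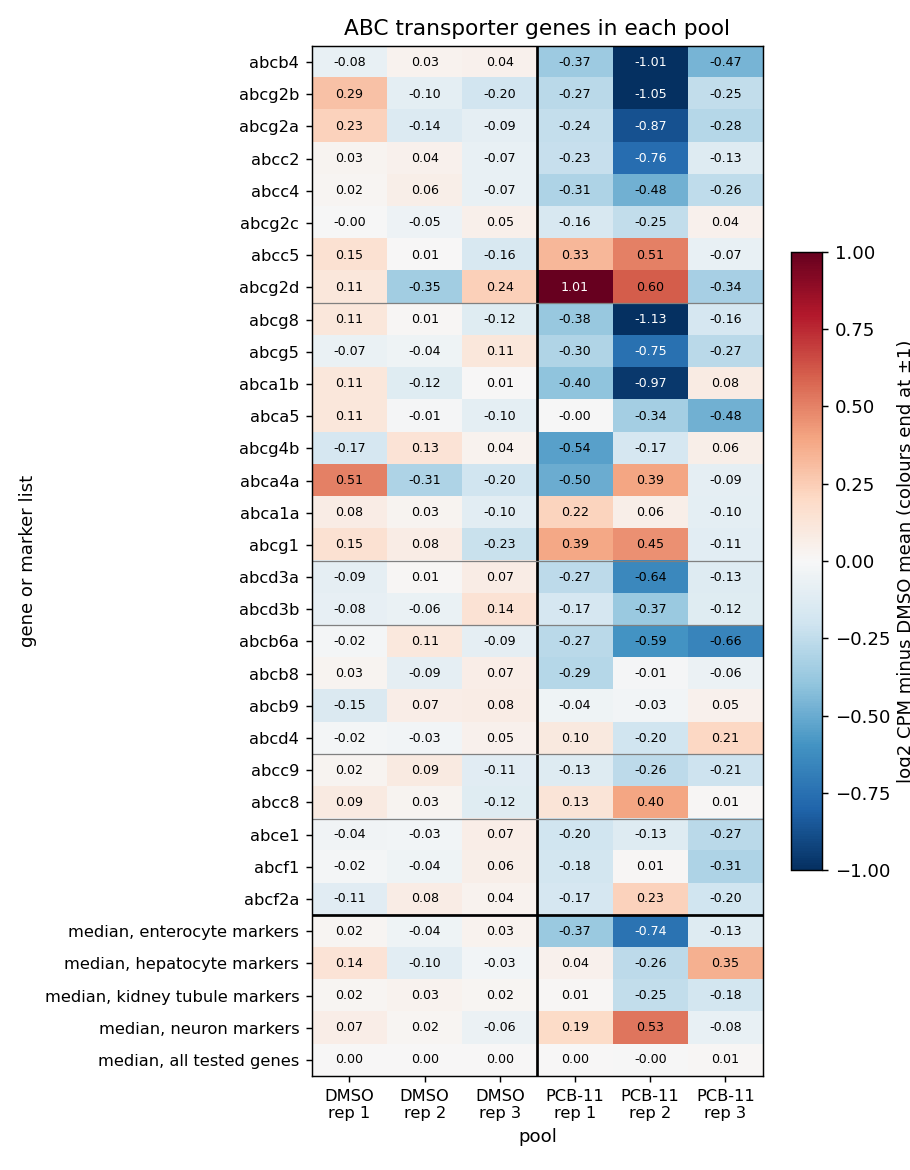
Log2 CPM minus the mean of the 3 DMSO pools for each tested ABC gene in each pool, grouped by role, with medians of 4 marker lists and of all tested genes underneath. Of the 27 genes, 13 are lowest in PCB-11 replicate 2, where the efflux genes have a median of -0.62, against -0.23 and -0.25 in PCB-11 replicates 1 and 3. It is the pool with the lowest enterocyte median (-0.74) and the highest neuron median (0.53).

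Enterocyte markers were also mostly lower in the exposed pools, and their part in the ABC values was not tested. Of the 12 tested, 11 were lower in PCB-11, and edgeR called 0 (0.0463% of all genes). In 6 all PCB-11 pools lay below all DMSO pools, against 9.35% of all genes. At an unadjusted p under 0.05 in edgeR, 6 were lower, against 6.04% of all genes. The summed level of the 12 markers was 2414 to 2502 CPM in DMSO and 1509 to 2197 CPM in PCB-11, lowest in replicate 2, and none was at 0. Median log2 differences were -0.37, -0.74 and -0.13 in PCB-11 replicates 1, 2 and 3. The 15 hepatocyte markers took another course, with 9 higher and 6 lower and medians of 0.04, -0.26 and 0.35. The 9 kidney tubule markers had medians of 0.01, -0.25 and -0.18, with 7 of 9 lower.

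Marker lists of tissues outside the gut also had unequal values. Of the lens markers, 14 of 14 tested were higher in PCB-11, and edgeR called 0 (0.0463% of all genes). In 11 all PCB-11 pools lay above all DMSO pools, against 10.0% of all genes. At an unadjusted p under 0.05 in edgeR, 10 were higher, against 5.8% of all genes. The summed level of the lens markers was 5287 to 6314 CPM in DMSO and 7210 to 9774 CPM in PCB-11, with medians of 0.33, 0.76 and 0.33 in the exposed pools. Of 7 macrophage markers tested, 5 were lower, with medians of -0.95, -0.88 and 0.29 in the exposed pools and -0.66, 0.51 and 0.16 in the controls. The 12 macrophage markers with a row, tested or not, summed to 88.0 to 108.6 CPM in DMSO and 53.8 to 102.1 CPM in PCB-11. Most of this sum came from slc7a7, and lgals9l1 was at 0. Levels of slc7a7 were 59.3, 64.6 and 70.0 CPM in DMSO and 42.7, 30.6 and 54.6 CPM in PCB-11. The sum therefore says little of the other markers. The marker mpeg1.1 had 0.11, 9.22 and 5.60 CPM in DMSO and 0.05, 0.37 and 11.9 CPM in PCB-11, in order of replicate. Of 14 skeletal muscle markers, 9 were lower, with medians of -0.37, -0.33 and 0.28. The part of these tissues in the ABC values was not tested.

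Set against the summed counts of all 12 enterocyte markers, abcb4 had a log2 ratio of -5.18, -5.05 and -5.09 in DMSO and -5.12, -5.42 and -5.41 in PCB-11. Exposed replicate 1 lay within the control range and the others below it. The sum gives most weight to its largest genes. Of these, fabp2 had 812 CPM in PCB-11 replicate 3 and 683 to 761 CPM in DMSO. The markers vil1, tm4sf4 and cdx1b had log2 fold changes of -0.71, -0.64 and -0.63, beyond the -0.59 of abcb4. The other markers fell less or were higher, so the ratio of abcb4 depends on the markers taken. The ratio to the sum of all 12 markers was -3.23 ± 0.09 and -3.19 ± 0.09 for abcc2, -4.39 ± 0.20 and -4.45 ± 0.15 for abcg2a, and -4.80 ± 0.09 and -4.74 ± 0.16 for abcc4. For these 3 genes the groups differed by less than the spread of either one. These ratios are a description only. The transcripts are also made outside the gut, and the part of enterocyte RNA in the lower levels was not tested.

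**Figure D4:**
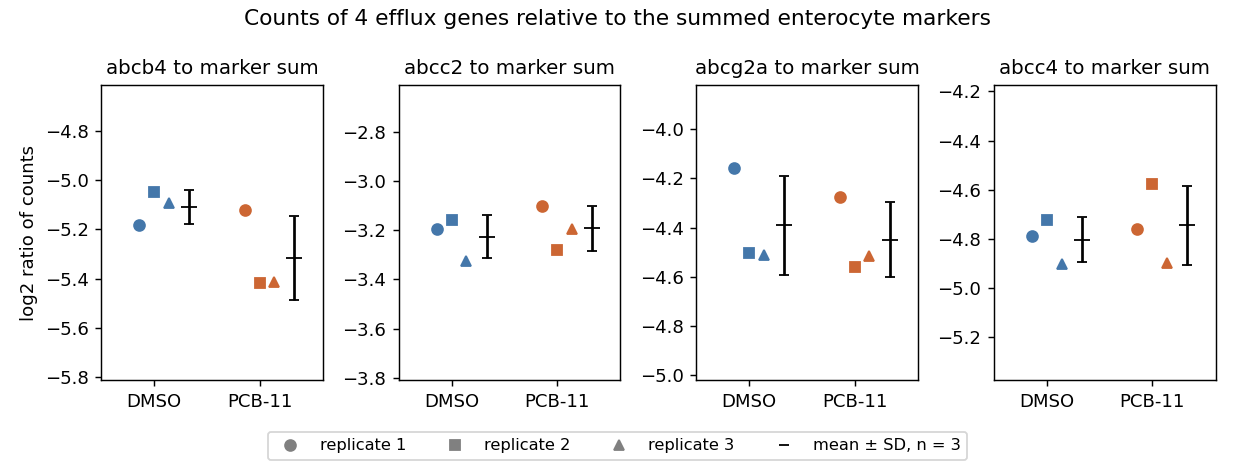
Log2 ratio of the counts of 4 efflux genes to the summed counts of 12 enterocyte markers in each pool, with black bars for mean ± SD over 3 pools. The ratio of abcb4 to this sum is lower in PCB-11 replicates 2 and 3 than in the controls, and for the other 3 genes the groups overlap.

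Replicate spread differed between members. The gene-wise biological coefficient of variation had a median of 12.5% over the 27 genes, against 12.2% over all genes tested. It was lowest for abcc9 (9.37%) and abcc4 (9.82%) and highest for abcg2d (26.3%) and abca4a (23.7%). The wide 95% interval of abcg2d, from -0.33 to 1.44, came with the fewest counts among the tested members.

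Genes around the transporters were read from lists of uptake carriers, regulators, sterol handling and partners. In each list edgeR called 0 genes, with 0.0463% of all genes called. Among receptors and factors that control transporter genes, 27 of 33 tested were lower, against 49.8% of all genes, with a median of -0.05. At an unadjusted p under 0.05 in edgeR, 5 were lower, against 6.04% of all genes. The sterol and lipogenic factor gene srebf1 had 8.57 ± 2.04 CPM in DMSO and 4.87 ± 1.19 CPM in PCB-11 (log2 fold change -0.81 ± 0.23, edgeR adjusted p = 0.321). The nuclear receptor genes rxraa (-0.36 ± 0.12) and pparg (-0.49 ± 0.18) followed in p. Among uptake and export carriers of the solute carrier families, 11 of 20 were lower and 9 higher (median -0.03). Those with the smallest p were slc22a15 (0.32 ± 0.12), slco3a1 (-0.52 ± 0.22) and slc47a4, listed as si:dkey-175a17.4 (0.23 ± 0.13).

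In sterol, lipoprotein and bile acid handling, 18 of 26 were lower and 8 higher (median -0.08). The low-density lipoprotein receptor gene ldlra had 26.8 ± 2.90 CPM in DMSO and 16.8 ± 3.33 CPM in PCB-11 (log2 fold change -0.67 ± 0.16, edgeR adjusted p = 0.281). It passed in DESeq2 (adjusted p = 0.0303), where 0.858% of all genes were called. In edgeR without PCB-11 replicate 3 it also passed (adjusted p = 0.044), with 1.41% of all genes called. It did not pass in limma-voom, which called 0.0% of all genes. The hepatic lipase gene lipca had 1.42 ± 0.30 CPM in DMSO and 2.74 ± 0.62 CPM in PCB-11 (log2 fold change 0.95 ± 0.26, edgeR adjusted p = 0.315). The cholesterol esterifying enzyme gene soat1 had a log2 fold change of -0.35 ± 0.18 (edgeR adjusted p = 0.469). Among the partners, 18 of 29 were lower (median -0.06), with ehhadh, alas2 and kcnj8 smallest in p. The ABC channel gene cftr, which bears another symbol and was no member, had 10.3 ± 1.34 CPM in DMSO and 12.6 ± 3.38 CPM in PCB-11 (log2 fold change 0.29 ± 0.20).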

How the data were processed

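The authors deposited raw counts, as integers by gene symbol, in a separate table for each pool. The aligner, counter and strand setting they used were not given in the sources used here. Per the submitters' processing notes, danRer7 and Cufflinks are named, with no stated role. The closing rows for reads outside genes (31.4% to 39.1% of counts) and ambiguous reads (0.379% to 0.429%) were left out. Counts were fitted over the whole table with edgeR 4.0.16 in R 4.3.3 (TMM, default filter, robust quasi-likelihood, group as the only term, two-sided), and 12960 genes were tested. CPM is computed from the counts; log2 CPM used a prior count of 2. DESeq2 1.42.0, limma-voom (limma 3.58.1), other scalings and filters, a replicate block and leaving out each pool were alternatives.

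Members, roles and lists were chosen with earlier results of these data known. Named were the 12 members with the smallest p, the member with the highest CPM in each subfamily, and 3 genes per list with the smallest p; other members are given within their role. Of 327 list entries, 273 matched a row, 10 of them by synonym. Figures were drawn with matplotlib 3.10.9. The values of 1 member are not reported here.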

Additional observations from a re-analysis of the deposited data

How the results depend on the processing

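No alternative called an ABC gene, and the 27 genes' median log2 fold change stayed between -0.21 and -0.18. The number of all genes called was 110 in DESeq2, 0 in limma-voom, 26 with the replicate block, and 0 to 184 on leaving out a pool, against 6. ABC genes lower at an unadjusted p under 0.05 numbered 6 in the main fit (6.04% of all genes). There were 10 in DESeq2 (5.15%) and 10 with the replicate block (7.88%). Plain library size gave 9 (5.52%), no filter 9 (5.85%) and limma-voom 9 (6.51%). On leaving out a pool there were 4 to 10 (2.82% to 11.6%). The cause of these differences was not tested. ABC genes with all PCB-11 pools below all DMSO pools numbered 11 with plain library size (8.75% of all genes) and 12 to 14 on leaving out a pool (12.1% to 20.4%), against 12 (9.35%). Of 405 recomputed member fold changes 395 kept their direction and 10 reversed, all on leaving out a pool and in 5 genes near 0: abca1a (-0.018 to 0.15), abca4a (-0.33 to 0.23), abcb9 (-0.082 to 0.025), abcd4 (-0.038 to 0.16) and abcf2a (-0.19 to 0.045). Whether replicate numbers pair the pools could not be told. Deviations of same-numbered pools correlated at 0.26, -0.15 and 0.37. The pools numbered 1 and those numbered 3 correlated best with each other, and those numbered 2 did not. Deviations from a mean of 3 pools are tied to each other, so these correlations cannot decide it, and the block rests on the number alone. Depth limits abcb3l1 and abcg2d.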
